A study of Homo sapiens with 18 samples.

Results

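The genes described here are 10 enzymes and partners that write, copy and erase DNA methylation or write the Polycomb mark on histone H3. They are DNMT1, UHRF1, DNMT3A, DNMT3B, TET1, TET2, TET3, EZH2, EZH1 and SUZ12, taken by symbol from a table of 26372 genes. The choice was made with earlier results of these data known. All 10 were in the table and all 10 passed the filter on low values, a mean of at least 1 FPKM (a level scaled to transcript length and to the size of the library) over all libraries, which 13785 genes passed.

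RNA-seq of ribosomal RNA-depleted total RNA had been made from SH-SY5Y, an established human neuroblastoma line that takes on neuronal features in culture. All cells had received a lentiviral construct made from the FUGW plasmid that carried ZNHIT3, a protein which the series title ties to the assembly of small nucleolar ribonucleoproteins. The study asks what variants of this protein do, and the 10 genes were read in 18 libraries, 3 in each of 6 groups. The groups were wild-type ZNHIT3 (WT) at day 0 and at day 18, ZNHIT3 with the C14R substitution (C14R) at day 0 and at day 18, and a short ZNHIT3 deletion (deletion) at day 0 and at day 18.

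Day 18 cells had spent 18 days in serum-free neurobasal and B27 medium with BDNF at 50 ng/ml, KCl at 20 mM, retinoic acid at 10 µM and a cell-permeable cyclic AMP (db-cAMP) at 2 mM, whereas SH-SY5Y cells were otherwise kept in medium with serum. Day and culture medium therefore cannot be told apart. The labels mention no clone and no untransduced control. The titles of the deletion libraries read "Depleted" while their treatment labels name a ZNHIT3 deletion, so the labels leave in doubt whether the cells' own ZNHIT3 was also lowered. The treatment label of the deletion reads 251 to 254 in replicate 1, 251 to 255 in replicate 2 and 251 to 256 in replicate 3, and these libraries were kept as one group, called deletion here, since their titles share one name. No label says whether replicates came from separate cultures, so p-values measure the spread between these libraries, which may be technical.

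Methyl groups on cytosine help to keep genes silent. DNMT3A and DNMT3B place them on new sites, and DNMT1, brought to freshly replicated DNA by UHRF1, copies them after each round of replication. The TET enzymes oxidise methylcytosine, which opens the way to its removal. Polycomb repressive complex 2 (PRC2) methylates a lysine in the tail of histone H3 through either EZH2 or EZH1, both of which need SUZ12 and EED. In neural cells EZH2 is known for its high level in dividing progenitors and EZH1 for its presence in cells that have stopped dividing, and UHRF1 and DNMT1 are known as genes of dividing cells.

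A textbook trait of promoters of genes of dividing cells is the E2F word, so the RefSeq promoters of the 10 genes (GRCh38.p14) were read for it. All 10 genes matched, with 22 windows running from 250 bases before to 50 bases after an annotated start. Searched on both strands, TTTCCCGC, TTTCGCGC, TTTGCCGC or TTTGGCGC stood in 6 of the 22 windows and in 3.31% of 35116 windows of the same length. The 6 windows belonged to 5 of the 10 genes, beside 3.99% of 27305 genes. They held 67% to 76% G or C, and the windows of all genes were not matched for base content. The 6 sites are printed with up to 60 bases on each side, cut at 10 bases past the start, in the direction of the gene, with the E2F word or its reverse complement in capitals. They are shown because they lie at or near a start of genes that fell at day 18 (UHRF1, DNMT1, EZH2), a gene that rose in WT and deletion (EZH1) and a gene that did not pass the test (SUZ12).
UHRF1, chr19:4909427-4909510, plus strand: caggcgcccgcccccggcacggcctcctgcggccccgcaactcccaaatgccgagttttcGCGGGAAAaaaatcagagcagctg
UHRF1, chr19:4909924-4910051, plus strand: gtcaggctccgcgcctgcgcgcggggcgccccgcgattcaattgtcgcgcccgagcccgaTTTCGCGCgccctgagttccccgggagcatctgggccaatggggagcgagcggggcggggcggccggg
DNMT1, chr19:10194944-10195015, minus strand: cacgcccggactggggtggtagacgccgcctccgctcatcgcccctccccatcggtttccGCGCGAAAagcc
EZH2, chr7:148884282-148884350, minus strand: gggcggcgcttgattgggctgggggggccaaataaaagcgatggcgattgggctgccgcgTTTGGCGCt
EZH1, chr17:42745088-42745215, minus strand: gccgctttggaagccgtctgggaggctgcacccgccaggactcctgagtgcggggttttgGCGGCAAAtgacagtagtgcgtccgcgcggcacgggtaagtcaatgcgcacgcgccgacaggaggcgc
SUZ12, chr17:31936758-31936885, plus strand: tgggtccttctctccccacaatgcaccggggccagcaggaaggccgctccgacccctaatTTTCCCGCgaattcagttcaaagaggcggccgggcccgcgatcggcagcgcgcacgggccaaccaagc
A match is a run of letters in a window and says nothing of binding. Of 3 other words searched on both strands, CCAAT was in 8 of the 22 windows against 34.6% of all windows, TTTGAA in 3 against 15.2%, and CACGTG in 4 against 7.26%. None of the E2F matches shares bases with a match of another word. The windows of DNMT3A, DNMT3B and the TET genes held no E2F word. The only window of DNMT3B has its start at 32779852, inside a gene span that begins at 32762385. The sequence at that end of DNMT3B was not searched, so the absence covers this window only.

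Several facts of the series bear on every value that follows. On the first principal component, 86.9% of the variance, day 0 and day 18 libraries stood apart. On the second, 2.5% of the variance, replicate 1 of C14R at day 18 stood at 24.8 while the other libraries lay between -8.3 and 9.3. Small RNA genes took 31.5% to 80.1% of the summed FPKM of a library, lowest in that same library. The absolute depth is unknown; steps in the low values gave day 0 libraries 59.2% to 84.6%, and day 18 libraries 82.2% to 100%, of the depth of the deepest one. ZNHIT3 itself lay at 531 to 542 FPKM in WT, 419 to 432 in C14R and 292 to 310 in deletion at day 0, and at 1103 to 1193, 600 to 756 and 294 to 313 at day 18, values in which delivered and own transcripts are not separated. Of the sympathetic neuroblastoma markers, 8 of 9 passed the filter, while TH, the first enzyme of catecholamine synthesis, did not and was at most 0.0804 FPKM at day 0 and 1.02 FPKM at day 18.

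From day 0 to day 18, the maintenance pair and EZH2 fell most among the 10 genes. UHRF1 came down to 32.9% to 34.7% of its day 0 level, EZH2 to 49.6% to 55.3% and DNMT1 to 55.9% to 60.1%, depending on the construct. DNMT3A, TET1 and TET3 fell by less, EZH1 was the one gene higher at day 18, and SUZ12 did not pass the test. By limma with Benjamini-Hochberg adjustment over all 13785 tested genes and a threshold of 0.05, the WT libraries gave 8 genes that fell and 1 that rose. The C14R libraries gave 6 and 0, and the deletion libraries 6 and 1.

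These counts stand against a background in which most genes changed. In WT 72.2% of all tested genes were called, 34% lower and 38.2% higher at day 18. In C14R the shares were 72.9%, 35% and 37.9%, and in deletion 73%, 34.4% and 38.6%. A called gene is thus the usual case, and the count of 9, 6 or 7 called genes of 10 is near the share of all genes, whereas the split lay towards lower values. The median log2 change of the 10 genes was -0.34 in WT, -0.27 in C14R and -0.20 in deletion, beside 0.03, 0.02 and 0.03 over all tested genes. How many of all tested genes were without overlap between day 0 and day 18 libraries was not counted, so such separation does not mark out a gene. Fewer cells of a type and less RNA per cell cannot be told apart in these bulk samples.

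**Figure D1:**
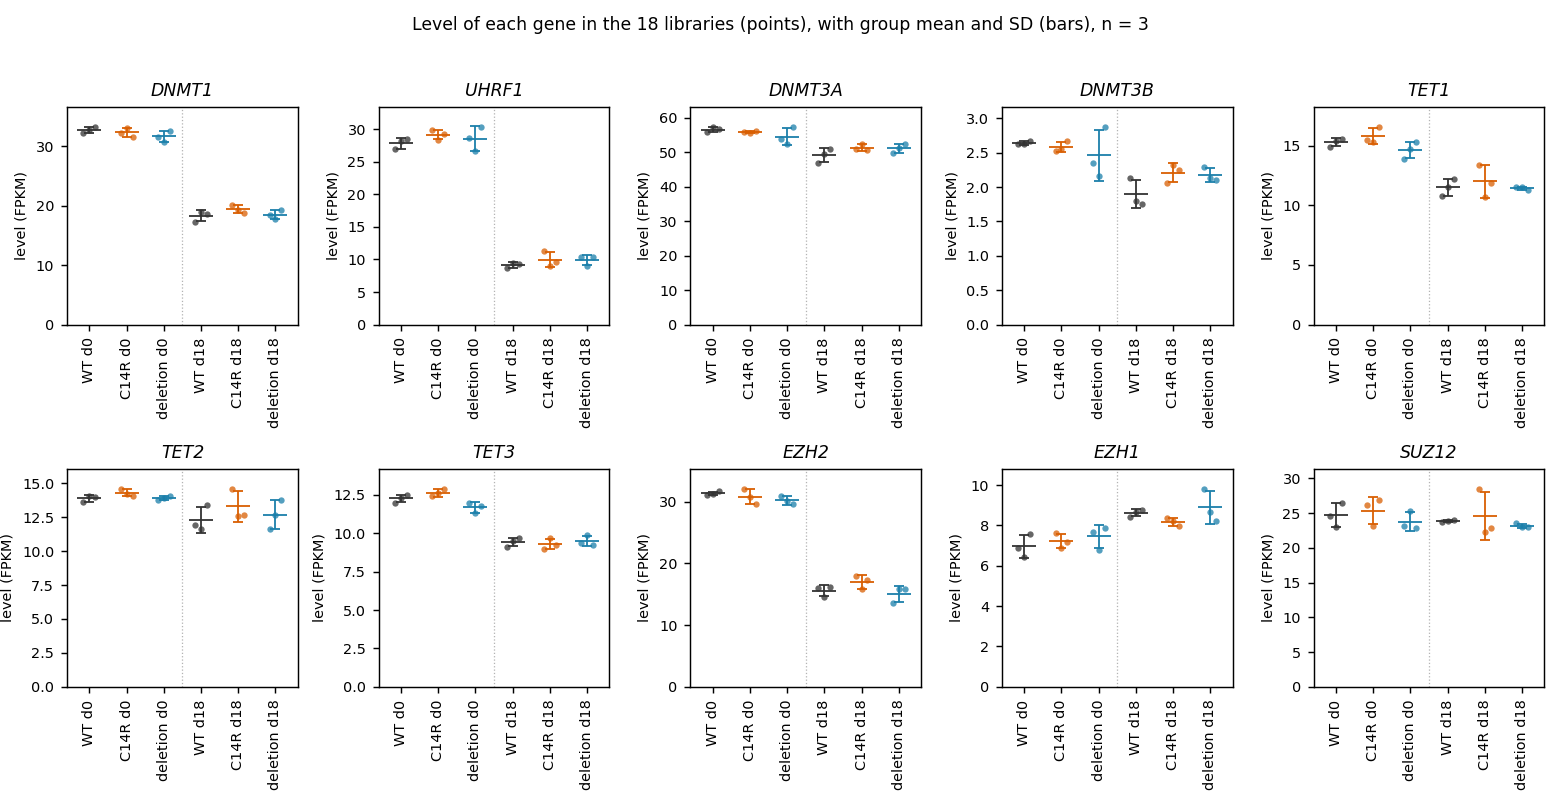
Level of each of the 10 genes in FPKM (vertical axis, from 0) in the 18 libraries (points), by construct and day, with the group mean and SD as bars, n = 3. UHRF1, DNMT1, EZH2, TET1, TET3 and, before rounding, DNMT3A are lower in all 9 day 18 libraries than in the 9 day 0 libraries. EZH1 is higher in all 9 day 18 libraries than in the 9 day 0 libraries, and DNMT3B, TET2 and SUZ12 overlap between days.

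UHRF1 (chr19:4903080-4962154, plus strand, GRCh38, as are all gene positions here) recognises hemimethylated DNA behind the replication fork. In the 3 WT libraries it stood at 26.9, 28.2 and 28.5 FPKM at day 0 and at 8.69, 9.5 and 9.3 FPKM at day 18. In C14R the values were 29.8, 28.4 and 29.2 FPKM, then 11.3, 8.99 and 9.68 FPKM. In deletion they were 28.6, 26.7 and 30.4 FPKM, then 10.4, 9.01 and 10.3 FPKM. The lowest of the 9 day 0 libraries, 26.7 FPKM, was above the highest of the 9 day 18 libraries, 11.3 FPKM, which was replicate 1 of C14R. The log2 change was -1.51 in WT (SE 0.07, adjusted p = 3.3e-12), -1.46 in C14R (adjusted p = 5.2e-12) and -1.44 in deletion (adjusted p = 5.9e-12), by limma. On log2(FPKM + 1) as deposited, UHRF1 was the only one of the 10 genes called with a log2 change of at least 1 in size, as were 14.1% of all tested genes in WT, 13.9% in C14R and 14.4% in deletion. In WT 2.73% of tested genes had a change as low or lower.

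DNMT1 (chr19:10133345-10231286, minus strand), the maintenance methyltransferase, stood at 32.3, 32.8 and 33.3 FPKM in WT at day 0 and at 17.3, 19 and 18.6 FPKM at day 18. In C14R it went from 32.3, 33.1 and 31.6 FPKM to 20.1, 19.3 and 18.8 FPKM. In deletion it went from 31.6, 30.7 and 32.6 FPKM to 18.5, 17.7 and 19.3 FPKM. The lowest day 0 library, at 30.7 FPKM, lay above the highest day 18 library, at 20.1 FPKM. The log2 change came to -0.81 for WT, -0.71 for C14R and -0.74 for deletion (SE 0.04 each), with limma adjusted p of 2.7e-11, 1.7e-10 and 8e-11. On the same strand DNMT1 overlaps S1PR2, a lipid receptor gene, over 9854 bases of the annotation. S1PR2 averaged 3.78 to 5.07 FPKM over the groups, so reads that could belong to either gene may have been counted in DNMT1.

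DNMT3A (chr2:25227855-25342590, minus strand), a methyltransferase for new sites, had the highest level of the 10 genes in each of the 6 groups. In WT it stood at 55.8, 57.3 and 56.8 FPKM at day 0 and at 46.9, 49.6 and 51 FPKM at day 18. In C14R it went from 55.9, 55.7 and 56.3 FPKM to 51.1, 52.5 and 50.6 FPKM, and in deletion from 53.8, 52.5 and 57.5 FPKM to 49.9, 51.2 and 52.4 FPKM. Over all constructs the 9 day 0 libraries ranged from 52.5 to 57.5 FPKM and the 9 day 18 libraries from 46.9 to 52.5 FPKM; the extremes meet at 52.5 after rounding but do not cross. The level at day 18 was 86.8% of day 0 in WT, 91.9% in C14R and 93.8% in deletion. The log2 changes of -0.20, -0.12 and -0.09 passed the limma test (adjusted p = 0.00018, 0.011 and 0.046). With small RNA genes left out and the other genes rescaled to a common sum, they became 0.00 (adjusted p = 0.94), 0.06 (0.22) and 0.13 (0.017), so the direction of DNMT3A rests on the scaling. In deletion the call was also lost without day 0 replicate 1 (-0.10, adjusted p = 0.057), day 0 replicate 3 (-0.05, 0.24), day 18 replicate 1 (-0.07, 0.15) or day 18 replicate 2 (-0.09, 0.083). It was lost as well with quantile normalization (-0.09, adjusted p = 0.056), no variance trend (-0.09, 0.075) or only the libraries compared (-0.09, 0.068).

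DNMT3B (chr20:32762385-32809356, plus strand), the second enzyme for new sites, was the lowest of the 10 genes in every group. In WT it went from 2.63, 2.62 and 2.67 FPKM to 2.13, 1.8 and 1.76 FPKM, without overlap. The C14R libraries went from 2.53, 2.55 and 2.67 FPKM to 2.06, 2.32 and 2.25 FPKM, again without overlap. In deletion it went from 2.35, 2.16 and 2.88 FPKM to 2.29, 2.13 and 2.11 FPKM, and the groups overlapped. The fall passed the limma test in WT (log2 change -0.33, SE 0.08, adjusted p = 0.0014). The change was -0.16 in C14R (adjusted p = 0.087) and -0.12 in deletion (adjusted p = 0.19). In C14R it passed with median-of-ratios scaling (-0.19, adjusted p = 0.045), quantile normalization (-0.22, 0.018) and no variance trend (-0.16, 0.044), and in deletion with quantile normalization (-0.21, 0.023). After the rescaling without small RNA genes the change was -0.19 in WT (0.044), -0.03 in C14R (0.77) and 0.04 in deletion (0.70). The difference of these changes between constructs did not pass either (C14R against WT 0.17, 95% interval -0.07 to 0.41; deletion against WT 0.21, -0.03 to 0.45). DNMT3L, a helper of these enzymes in germ cells, was listed at 0 in all libraries.

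DNMT1 made up 35.6% ± 0.255 (SD, n = 3) of the summed FPKM of the 3 DNMT genes in WT at day 0 and 26.4% ± 0.511 at day 18. In C14R the share went from 35.6% ± 0.661 to 26.6% ± 0.706 and in deletion from 35.7% ± 0.526 to 25.8% ± 0.69. The day 0 and day 18 libraries did not overlap in any construct (exact two-sided permutation p = 0.1, the smallest that 3 against 3 libraries can give). This share does not depend on how libraries are scaled, since all 3 genes move alike under a common factor.

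The TET dioxygenases had nearly equal levels per length, between 11.7 and 15.8 FPKM in the day 0 group means. TET1 (chr10:68560656-68694482, plus strand) stood at 14.9, 15.4 and 15.6 FPKM in WT at day 0 and at 10.8, 11.5 and 12.2 FPKM at day 18. In C14R it went from 15.5, 15.3 and 16.6 FPKM to 13.4, 10.7 and 11.9 FPKM, and in deletion from 13.9, 14.7 and 15.3 FPKM to 11.5, 11.5 and 11.3 FPKM. The C14R value of 13.4 FPKM, in replicate 1, was the highest of day 18. TET3 (chr2:73986404-74108176, plus strand) went from 12, 12.3 and 12.5 FPKM to 9.11, 9.5 and 9.67 FPKM in WT. The C14R libraries went from 12.4, 12.6 and 12.9 FPKM to 9, 9.66 and 9.24 FPKM, and in deletion from 12, 11.3 and 11.8 FPKM to 9.37, 9.9 and 9.25 FPKM. For both genes all 9 day 0 libraries lay above all 9 day 18 libraries. TET1 came to 75% of its day 0 level in WT, 76% in C14R and 78% in deletion, and TET3 to 76.8%, 73.5% and 81.3%. The log2 changes of TET1 were -0.39, -0.37 and -0.33 (limma adjusted p = 4.7e-05, 6.6e-05 and 0.00022). Those of TET3 were -0.35, -0.41 and -0.27 (limma adjusted p = 2.7e-06, 4e-07 and 4.3e-05). The rescaling without small RNA genes brought the changes in WT to -0.19 for TET1 (adjusted p = 0.019) and -0.16 for TET3 (0.011). The changes in deletion no longer passed, at -0.13 for TET1 (adjusted p = 0.11) and -0.07 for TET3 (0.23).

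TET2 (chr4:105145875-105279816, plus strand) stood at 13.6, 14.1 and 14 FPKM in WT at day 0 and at 11.9, 11.6 and 13.4 FPKM at day 18. In C14R it went from 14.6, 14.2 and 14.1 FPKM to 14.6, 12.6 and 12.7 FPKM, and the groups overlapped through replicate 1 of day 18. In deletion it went from 13.8, 13.9 and 14.1 FPKM to 11.6, 12.7 and 13.8 FPKM, also with overlap. The log2 change in WT was -0.17 (SE 0.07, limma adjusted p = 0.029). That call was lost without day 0 replicate 2 (-0.16, adjusted p = 0.075), day 0 replicate 3 (-0.16, 0.064), day 18 replicate 1 (-0.15, 0.088) or day 18 replicate 2 (-0.13, 0.12), and after the rescaling the change was 0.03 (0.74). The changes of -0.10 in C14R (adjusted p = 0.17) and -0.12 in deletion (0.096) did not pass. In deletion TET2 passed with median-of-ratios scaling (-0.18, adjusted p = 0.025), quantile normalization (-0.15, 0.042) and array weights (-0.13, 0.039). It also passed there without day 18 replicate 3 (-0.18, 0.028), and in C14R with array weights (-0.16, 0.015). Without replicate 1 of C14R at day 18, TET2 passed in C14R as well (-0.17, adjusted p = 0.025). After the rescaling it stood at 0.07 in C14R (0.35) and 0.08 in deletion (0.30). An antisense gene, TET2-AS1, overlaps TET2 over 6710 bases and averaged 0.0812 FPKM.

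TET1 made up 36.9% ± 0.21 of the summed TET level in WT at day 0 and 34.6% ± 0.632 at day 18 (SD, n = 3). The share moved by -2.33 points in WT, -2.32 points in C14R and -2.39 points in deletion. Leaving out 1 library gave -3.14 (without day 18 replicate 1) to -1.25 points (without day 18 replicate 2) in C14R. In WT and C14R the libraries of the days did not overlap (exact two-sided permutation p = 0.1, the smallest possible), though in C14R both days have a library at 36.3%. In deletion they overlapped (exact permutation p = 0.2).

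EZH2 (chr7:148807383-148884321, minus strand), the PRC2 methyltransferase of dividing cells, stood at 31.1, 31.2 and 31.7 FPKM in WT at day 0 and at 16, 14.5 and 16.1 FPKM at day 18. In C14R it went from 32.1, 30.7 and 29.7 FPKM to 18, 15.8 and 17.3 FPKM. In deletion it went from 30.9, 30.1 and 29.6 FPKM to 13.6, 15.8 and 15.9 FPKM. No day 18 library reached the lowest day 0 library, 29.6 FPKM, and the highest was replicate 1 of C14R. The log2 change was -0.97 in WT, -0.82 in C14R and -0.96 in deletion (SE 0.06 each; limma adjusted p = 1.5e-10, 1.5e-09 and 1.7e-10).

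EZH1 (chr17:42700275-42745049, minus strand), the alternative catalytic subunit, moved the other way. In WT it stood at 6.87, 6.46 and 7.56 FPKM at day 0 and at 8.43, 8.66 and 8.79 FPKM at day 18. In C14R the values were 7.61, 6.9 and 7.2 FPKM, then 8.38, 8.2 and 7.95 FPKM. In deletion they were 7.7, 6.78 and 7.88 FPKM, then 9.82, 8.65 and 8.22 FPKM. Every day 18 library was above every day 0 library, the closest being 7.95 FPKM (C14R, day 18) and 7.88 FPKM (deletion, day 0). The log2 change was 0.28 in WT (SE 0.07, limma adjusted p = 0.002) and 0.23 in deletion (0.008), and 0.16 in C14R, where it did not pass (0.054). In deletion the call was lost without day 0 replicate 2 (0.17, adjusted p = 0.054) or day 18 replicate 1 (0.16, 0.058). In C14R it passed without day 0 replicate 1 (0.19, 0.044). After the rescaling EZH1 was higher in all 3 constructs, by 0.46 in WT (adjusted p = 1.9e-05), 0.32 in C14R (0.00074) and 0.42 in deletion (4.8e-05). The difference of the change between C14R and WT was -0.12 (95% interval -0.33 to 0.09) and was not called.

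The makeup of the EZH pair shifted towards EZH1. EZH1 made up 18.1%, 17.1% and 19.3% of the summed EZH1 and EZH2 level in the WT libraries at day 0 and 34.5%, 37.4% and 35.3% at day 18. The mean share rose by 17.6 points in WT, from 19% to 32.5% in C14R and from 19.8% to 37.2% in deletion. The libraries of the days did not overlap in any construct (exact two-sided permutation p = 0.1, the smallest possible). Replicate 1 of deletion at day 18 had the highest share, 42%, and without it the rise in deletion was 15 points in place of 17.4. EZH2 remained the higher of the pair per length in all 18 libraries.

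**Figure D2:**
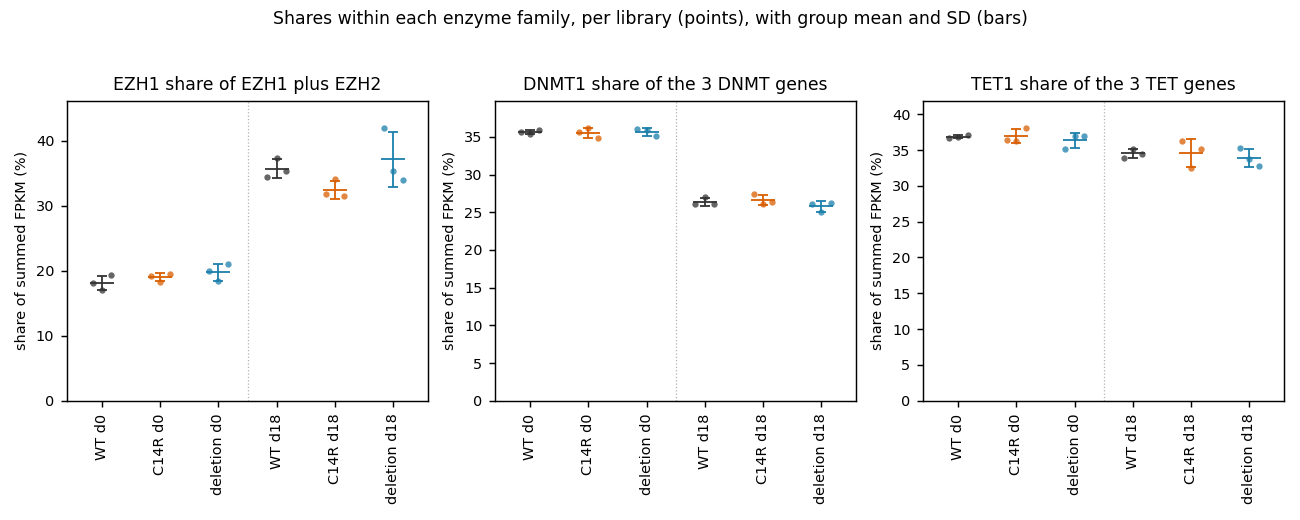
Share of EZH1 in EZH1 plus EZH2, of DNMT1 in the 3 DNMT genes and of TET1 in the 3 TET genes, in percent of summed FPKM (vertical axes, from 0), per library (points) with group mean and SD (bars, n = 3). The EZH1 share lies between 17.1% and 21% at day 0 and between 31.5% and 42% at day 18, and the mean TET1 share moves by -2.32 to -2.39 points.

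SUZ12 (chr17:31937018-32001045, plus strand), the subunit around which PRC2 is built, did not pass the test in any construct. It stood at 24.6, 23 and 26.5 FPKM in WT at day 0 and at 23.7, 23.8 and 24 FPKM at day 18. In C14R the values were 26.1, 23.1 and 26.9 FPKM, then 28.5, 22.3 and 22.8 FPKM. In deletion they were 23.1, 25.3 and 22.8 FPKM, then 23.5, 23 and 23 FPKM. The days overlapped in all 3 constructs, and the highest of the 18 values was in replicate 1 of C14R at day 18. The log2 change was -0.05 in WT (95% interval -0.21 to 0.12, limma adjusted p = 0.59), -0.05 in C14R (-0.22 to 0.11) and -0.03 in deletion (-0.20 to 0.13). Without that replicate SUZ12 was lower in C14R (-0.16, adjusted p = 0.031), and after the rescaling it was higher in deletion (0.18, adjusted p = 0.048) and stood at 0.15 in WT (0.093) and 0.13 in C14R (0.16). The pseudogene SUZ12P1, a partial copy, averaged 6.85 to 10 FPKM over the groups, so reads may have been divided between the copies and the SUZ12 values are uncertain to that extent.

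The order of levels per length changed with the fall of UHRF1, DNMT1 and EZH2. At day 0 the order in each construct was DNMT3A, DNMT1, EZH2, UHRF1, SUZ12, TET1, TET2, TET3, EZH1 and DNMT3B. Neighbours overlapped between DNMT1 and EZH2 and between EZH2 and UHRF1 in C14R and deletion, and between TET1 and TET2 in deletion. At day 18 SUZ12 stood second behind DNMT3A in each construct, followed by DNMT1 and EZH2. UHRF1, ranked 4 of 10 at day 0, was ranked 8 in WT and 7 in C14R and deletion at day 18, and its libraries overlapped with those of TET3 in all 3 constructs. DNMT3B stayed apart from the next higher gene in every group.

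**Figure D3:**
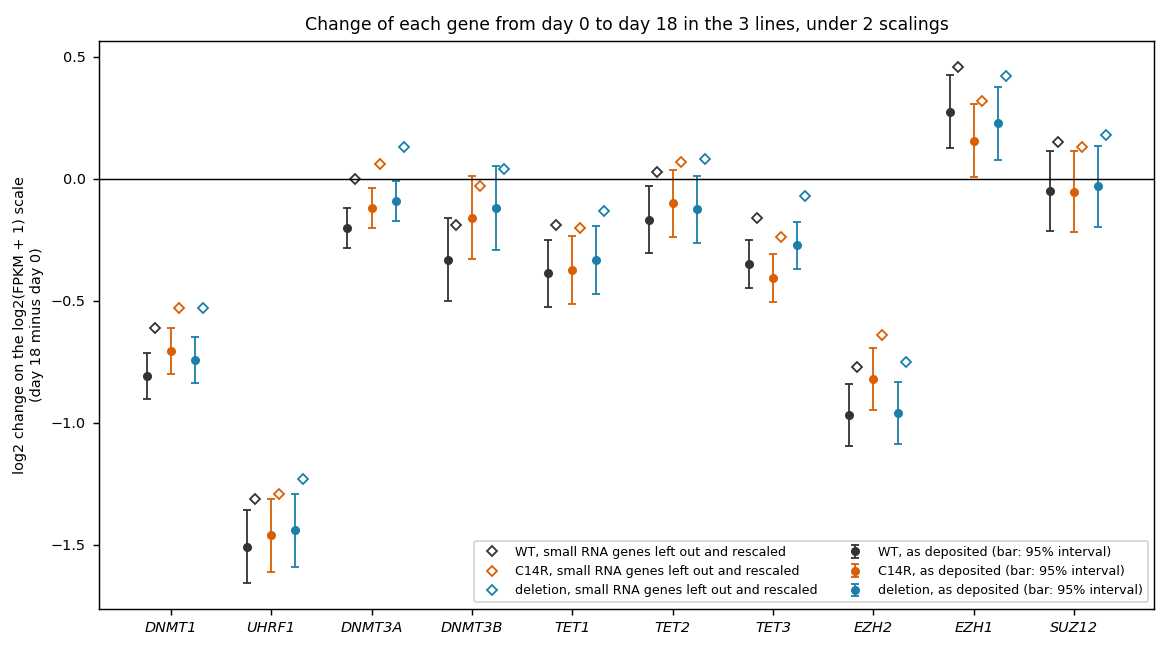
Log2 change from day 0 to day 18 on the log2(FPKM + 1) scale (vertical axis) of each gene in WT, C14R and deletion, as fitted to the deposited values (filled, bars are 95% intervals) and after small RNA genes were left out and the rest rescaled (open). The rescaled values lie higher for every gene; UHRF1, EZH2 and DNMT1 stay at -0.53 or below, while DNMT3A, TET2 and SUZ12 end at or above 0.

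How far a small change can be read depends on how libraries are scaled. When small RNA genes were left out and the remaining genes rescaled to a common sum, the median change of all genes rose from 0.03 to 0.21 in WT, from 0.02 to 0.18 in C14R and from 0.03 to 0.23 in deletion. The share of calls that were higher at day 18 went from 52.9% to 68.7%, from 52% to 66.5% and from 52.8% to 69.5%. Among the 10 genes, 1 was then higher and 6 lower in WT, 1 and 5 in C14R, and 3 and 3 in deletion. Relative to the median of all genes the 10 genes barely moved: UHRF1 in WT lay 1.53 below it as deposited and 1.52 below it after rescaling, both on the log2 scale. EZH2 in WT lay 0.99 and 0.98 below it, DNMT3A 0.23 and 0.21 below it, and EZH1 0.25 above it under both scalings.

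Genes of dividing cells moved with the fall of UHRF1, DNMT1 and EZH2. All 18 proliferation markers were lower at day 18 in all 3 constructs, with a median log2 change of -1.45 in WT and -1.29 in C14R and in deletion, and all 18 stayed lower after the rescaling. Their summed level went from 711 to 759 FPKM over the 9 day 0 libraries to 253 to 318 FPKM over the 9 day 18 libraries. MKI67, a protein of cycling cells, went from 49.8 ± 0.653 to 19.6 ± 0.922 FPKM in WT (SD, n = 3). TYMS, which makes thymidylate, showed the lowest change of the list in WT (-2.41, limma adjusted p = 7.7e-14). The list was chosen as genes of dividing cells, with which UHRF1, DNMT1 and EZH2 are known to move. The part of cell division in the fall of UHRF1, DNMT1 and EZH2 was not tested.

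Markers of other cell states also moved with day. The summed level of 9 neuron markers went from 858 to 901 FPKM at day 0 to 1861 to 2058 FPKM at day 18, and 8 of 8 tested were higher in each construct. RBFOX3, a marker of mature neurons, was too low to be tested and at most 0.502 FPKM. The 9 markers of substrate-adherent or mesenchymal cells, a second cell form known in neuroblastoma cultures, fell in sum from 326 to 431 FPKM to 39.4 to 49.6 FPKM, with 7 of 7 tested lower. Sympathetic neuroblastoma markers summed to 783 to 821 FPKM at day 0 and 1039 to 1226 FPKM at day 18. Schwann or glial markers summed to at most 5.27 FPKM at day 0 and 9.68 FPKM at day 18, with SOX10 at most 0.477 FPKM. The part of these shifts in the changes of the 10 genes was not tested.

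Between constructs at the same day, none of the 10 genes passed the test. At day 0 the log2 differences between C14R and WT ran from -0.02 (EZH2) to 0.06 (UHRF1), and no 95% interval reached beyond -0.19 or 0.21. Of the 10 genes 0 were called and 0 had an unadjusted p under 0.05, beside 0% of all tested genes called and 388 of 13785 with an unadjusted p under 0.05. Between deletion and WT at day 0 they ran from -0.08 (DNMT3B) to 0.09 (EZH1), within intervals of -0.25 to 0.23, and the smallest adjusted p was 0.84 (TET3). Here 0.029% of all genes were called. Between C14R and deletion at day 0, where 0.058% of all genes were called, TET3 differed most (0.11, 95% interval 0.01 to 0.20). It was the only one with an unadjusted p under 0.05, and its adjusted p was 0.47 by limma. Of all tested genes, 1357 of 13785 had an unadjusted p under 0.05 in this comparison, so 1 of 10 is near the share of all genes.

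At day 18, too, none passed. Between C14R and WT they ran from -0.07 (EZH1) to 0.15 (DNMT3B), within intervals of -0.22 to 0.32, the smallest adjusted p was 0.46 (EZH2), and 0.0363% of all genes were called. Between deletion and WT they ran from -0.04 (EZH2) to 0.13 (DNMT3B), within intervals of -0.20 to 0.31, the smallest adjusted p was 0.56 (DNMT3B), and 0.0725% of all genes were called. Between C14R and deletion EZH2 differed by 0.17 (95% interval 0.04 to 0.29), the only one with an unadjusted p under 0.05, with an adjusted p of 0.42 and 0.029% of all genes called. Without replicate 1 of C14R at day 18, EZH2 differed by 0.13 (adjusted p = 0.97). The 3 C14R libraries at day 18 held 18, 15.8 and 17.3 FPKM of EZH2 and the 3 deletion libraries 13.6, 15.8 and 15.9 FPKM, which overlap.

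Whether the change with day differed between constructs was tested directly, and none of the 10 genes passed. For C14R against WT the differences of the changes ran from -0.12 (EZH1) to 0.17 (DNMT3B), with 0 of 10 genes called, 0 with an unadjusted p under 0.05 and 0% of all genes called. For deletion against WT they ran from -0.05 (EZH1) to 0.21 (DNMT3B), with 0 of 10 genes called and 0.0145% of all genes called. The smallest adjusted p was 0.88 (EZH2) and 0.71 (DNMT3A), by limma. The intervals reached from -0.33 to 0.41 for C14R and from -0.26 to 0.45 for deletion, so differences up to those bounds cannot be told from 0 with these libraries.

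Genes that act beside DNMT1 and read or remodel methylated DNA went both ways. Of 11 tested, 3 were higher and 4 lower in WT, 3 and 3 in C14R, and 4 and 3 in deletion, with a median log2 change of -0.10 in WT. Of all tested genes 38.2% were higher and 34% lower in WT, 37.9% and 35% in C14R, and 38.6% and 34.4% in deletion. The counts of this list and of the lists below are to be read beside those shares. HELLS, a remodelling helicase needed for maintenance methylation, fell from 32.5 ± 2.35 to 11.4 ± 0.888 FPKM in WT (log2 change -1.43, limma adjusted p = 2.7e-11). MBD3, a subunit of the NuRD complex, fell from 20.6 ± 1.24 to 11.8 ± 0.562 FPKM. The zinc-finger readers ZBTB4 and ZBTB38 rose, by 0.36 and 0.37 on the log2 scale. UHRF2, the paralogue of UHRF1, stood at 13.3 ± 0.381 and 13.2 ± 0.293 FPKM (log2 change -0.01, adjusted p = 0.81). After the rescaling 5 were higher and 2 lower in WT, and UHRF2 was then among the higher ones (0.18, adjusted p = 0.0088).

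Excision of oxidised cytosine and the supply of the TET cofactor were covered by 8 tested genes, of which 2 were higher and 5 lower in WT. IDH1, a cytosolic source of 2-oxoglutarate, rose from 33.8 ± 0.611 to 103 ± 2.43 FPKM (log2 change 1.58, limma adjusted p = 5.7e-17). Its mitochondrial counterpart IDH2 fell from 50.1 ± 2.29 to 27.2 ± 2.67 FPKM (-0.86). GADD45A, a stress-response gene tied to demethylation, fell from 36.2 ± 0.952 to 12.7 ± 0.495 FPKM (-1.44), and the glycosylase gene NEIL2 rose by 0.39. NEIL2 did not pass in C14R (0.16, adjusted p = 0.054) or deletion (0.13, 0.12). TDG, the glycosylase that removes oxidised forms of methylcytosine, was lower too (-0.46, adjusted p = 9e-07). In C14R 2 were higher and 5 lower, and in deletion 2 and 4; the higher ones there were IDH1 and NEIL1.

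Of 10 genes of the methyl donor cycle, 7 were lower and 2 higher in WT and in C14R, and 8 and 2 in deletion. The median log2 change was -0.48 in WT beside 0.03 over all tested genes. AHCY, which clears the product that inhibits methyltransferases, fell from 73 ± 1.61 to 28.5 ± 0.925 FPKM in WT (log2 change -1.33, limma adjusted p = 1.8e-12). AHCYL2, an AHCY-like gene, rose from 8.11 ± 0.276 to 15.3 ± 0.241 FPKM (0.84). After the rescaling 6 were lower and 2 higher in each construct.

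The other PRC2 genes divided. Of 10 tested, 6 were lower and 4 higher in WT, 6 and 3 in C14R and in deletion, and after the rescaling 4 and 4 in WT. Among all tested genes 34% were lower and 38.2% higher in WT as deposited. The median log2 change of the list in WT was -0.26, beside 0.03 over all tested genes. PHF19, a subunit that guides PRC2 to chromatin, fell from 10.7 ± 0.313 to 2.98 ± 0.418 FPKM (log2 change -1.56, limma adjusted p = 1.2e-10), and its paralogue PHF1 rose from 8.1 ± 0.696 to 16.2 ± 0.493 FPKM (0.92, adjusted p = 6.5e-09). RBBP4, a histone-binding subunit, fell from 43 ± 1.37 to 26.3 ± 0.578 FPKM (-0.69), and LCOR rose from 9.97 ± 0.548 to 15.5 ± 0.748 FPKM (0.59). EED, the subunit that binds the PRC2 mark, was lower as well (10.1 ± 0.364 and 7.25 ± 0.109 FPKM, adjusted p = 4.2e-06). EZHIP, an inhibitor of PRC2 listed under its older symbol, did not pass the filter and was at most 0.67 FPKM.

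**Figure D4:**
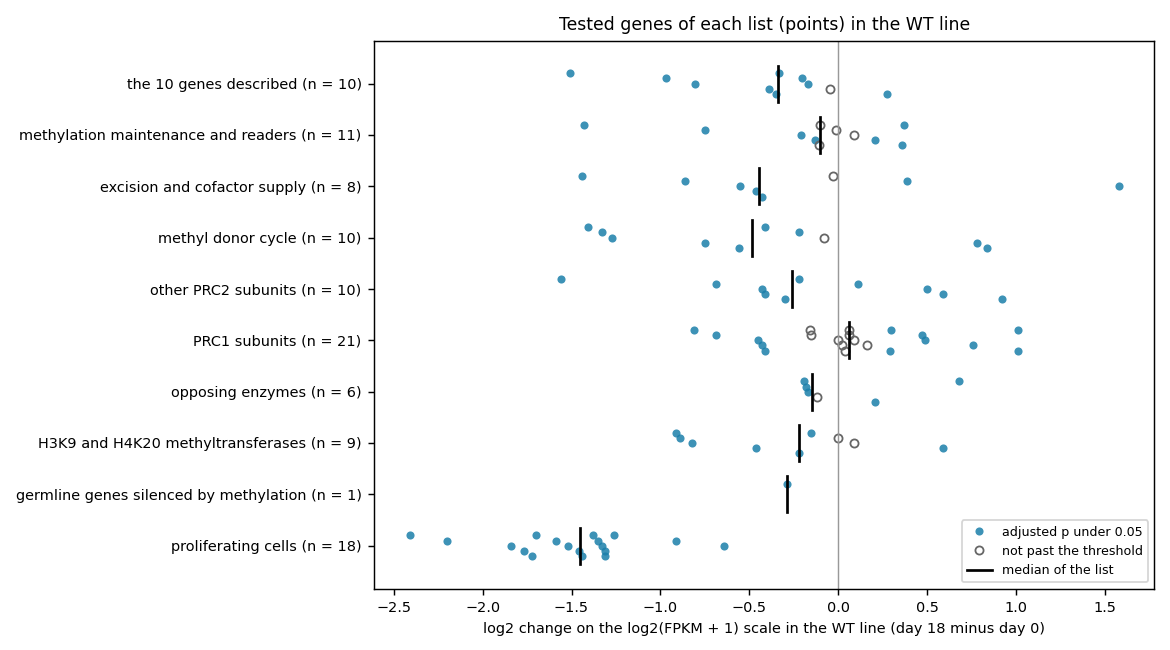
Log2 change from day 0 to day 18 in WT on the log2(FPKM + 1) scale (horizontal axis) of the 10 genes and of the tested genes of each list (points, filled where the limma adjusted p was under 0.05), with the list median as a bar. The proliferation list lies wholly below 0 with a median of -1.45, and the PRC1 list lies on both sides with a median of 0.06.

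PRC1, the complex that ubiquitylates histone H2A and is often found with PRC2, had 21 tested subunit genes. In WT 7 were higher and 6 lower, in C14R and in deletion 9 and 6, and after the rescaling 14 and 5 in WT. The WT counts as deposited are near the shares of all tested genes, 38.2% higher and 34% lower. After the rescaling 7058 of 13754 tested genes were higher and 3218 lower in WT. BCORL1, a corepressor subunit, rose from 10.6 ± 0.161 to 22.4 ± 1.08 FPKM in WT (log2 change 1.01). PCGF6 fell from 6.64 ± 0.137 to 3.38 ± 0.378 FPKM (-0.81) and PHC2 from 27.5 ± 1.04 to 16.6 ± 1.6 FPKM (-0.69). RNF2, the main ubiquitin ligase, was higher (0.49, limma adjusted p = 6e-07).

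Of 6 genes that oppose Polycomb, 2 were higher and 3 lower in WT, beside 38.2% higher and 34% lower of all tested genes. The demethylase gene KDM6B rose from 15.8 ± 0.372 to 18.4 ± 0.226 FPKM and ASXL3 from 4.02 ± 0.11 to 7.04 ± 0.596 FPKM. KDM6A, a second demethylase of the PRC2 mark, fell from 10.3 ± 0.422 to 8.99 ± 0.656 FPKM (log2 change -0.18, limma adjusted p = 0.0078), and ASXL2 fell by 0.19. The falls did not outlast the rescaling, under which 0 of the 6 were lower in any construct and KDM6A changed by 0.01 in WT (adjusted p = 0.91).

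The genes most like each of the 10 over the 18 libraries were found by the root mean square difference of log2 values centred per gene. For UHRF1 they were TLE4 (0.074) and BAZ1A (0.077), and 17 genes lay within 0.1. For DNMT1 they were SMARCC1 (0.039) and HEATR1 (0.043), with 307 genes within 0.1, and for EZH2 NPM1 (0.062) and CCT5 (0.065), with 100. DNMT3A was nearest to TRRAP (0.039) and CREBBP (0.041) and had 1121 genes within 0.1. EZH1 was nearest to KIAA0556 (0.071) and ZNF2 (0.074). Among the 10 genes themselves the nearest pairs were DNMT3A and TET2 (0.064), DNMT3A and DNMT3B (0.081) and TET1 and TET3 (0.081), while DNMT1 and EZH2 differed by 0.113. This measure rests almost wholly on the difference between days that all 18 libraries share.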

How the data were processed

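The data were RNA-seq values of 18 libraries of SH-SY5Y cells, 3 in each of 6 groups of construct and day, grouped by title. Per the labels' protocols, TRIzol RNA was treated with DNase I, depleted of ribosomal RNA with Ribo-Zero and made into libraries with NEBNext Ultra. The authors deposited one table of FPKM per gene symbol and library. TopHat2, STAR, Cufflinks 2.2.1 and hg38 are named in the submitters' processing notes; their roles, the annotation and the use of strand are not given in the sources used here, so overlapping and copied genes are uncertain.

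Of 26372 genes, 4960 were listed at 0 in all libraries. The 13785 with a mean FPKM of at least 1 were tested on log2(FPKM + 1), a scale that understates changes of low genes, with limma 3.58.1 in R 4.3.3: 1 fit of 6 group means over all libraries, empirical Bayes with a mean-variance trend, and Benjamini-Hochberg adjustment within each comparison at 0.05. Shares of summed FPKM were compared by exact two-sided permutation tests. Tested on simulated data with the WT day comparison's 13785 genes, of which 200 were changed, the fit recovered 47% of changes of 0.3 and 100% of changes of 1 (log2). It also made 12 false calls. In the real WT day comparison 72.2% of tested genes were called, so these recovery shares do not carry over to it. FPKM carry no counts, so no counting interval is given.

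The members and lists were chosen with earlier results of these data known. All 10 members are named; of each list, at most the 2 largest rises and the 2 largest falls past the threshold in WT with separated libraries are named, and UHRF2, TDG, EED, RNF2, NEIL1, MKI67 and genes below the filter were added after their values had been seen. Older symbols were matched for 4 list genes. Positions are from GENCODE release 29 on GRCh38, promoters from RefSeq (GRCh38.p14). Alternatives were another pseudocount, filter, scaling, variance model, weighting, threshold or set of libraries, the replicate number as a block, and leaving out each library. Values of some list genes are not reported here. The shared fit without C14R day 18 replicate 1 was added after the data were seen.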

Additional observations from a re-analysis of the deposited data

How the results depend on the processing

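The falls of UHRF1, EZH2 and DNMT1 kept their direction and their call under all 17 alternatives in WT, 16 in C14R and 17 in deletion, with log2 changes of -1.59 to -1.23 for UHRF1, -1.02 to -0.64 for EZH2 and -0.86 to -0.53 for DNMT1. Of 497 alternative values for the 10 genes in the day comparisons, 454 kept direction and call, and 7 more turned direction without being called. With small RNA genes left out and rescaling, 5 values with a call in either setting reversed: DNMT3A at 0.00 in WT, 0.06 in C14R and 0.13 in deletion, TET2 at 0.03 in WT and SUZ12 at 0.18 in deletion. Of the 7 uncalled turns, 5 were in this setting: TET2 at 0.07 in C14R and 0.08 in deletion, DNMT3B at 0.04 in deletion, and SUZ12 at 0.15 in WT and 0.13 in C14R. The others were SUZ12 at 0.01 in C14R without day 18 replicate 2 and at 0.01 in deletion without day 0 replicate 2. This alternative moved the median of all genes by its construction. Asking for a log2 change of at least 1 left 1 called gene, UHRF1, in WT, in C14R and in deletion, beside 14.1%, 13.9% and 14.4% of all tested genes. EZH2 lay near that size, at -1.02 in WT and -1.01 in deletion with median-of-ratios scaling. Without the added pseudocount its mean FPKM at day 18, as deposited, was 49.6% of day 0 in WT and 49.9% in deletion, already past that size. DNMT3B was not tested under a mean FPKM of at least 5. Leaving out 1 library gave 8 to 9 called genes in WT, 6 to 8 in C14R and 5 to 8 in deletion, and EZH1 share rises of 16.7 to 18.2, 12.6 to 13.9 and 15 to 18.9 points. Between constructs and for the differences of the day changes, 0 of 1442 alternative values changed a call. Counts over all genes in these comparisons moved by more than 1.5 times, with 0 of the 10 genes among them. At day 18 the count was 5 between C14R and WT, but 205 with array weights, 126 without C14R replicate 2, 10 with no filter and 2 with only the libraries compared. Deletion against WT gave 10, then 95 with array weights, 51 without C14R replicate 1, 26 with quantile normalization, 23 with a pseudocount of 0.1 and 2 with only the libraries compared. C14R against deletion gave 4, then 13 with no filter and 2 at a mean FPKM of at least 5. At day 0, C14R against deletion gave 8, then 95 with array weights and 1 without C14R replicate 1 or 3. Deletion against WT gave 4, then 1 at a mean FPKM of at least 5, and C14R against WT 0, then 2 with array weights. The difference of the day change gave 0 genes for C14R and 2 for deletion, then 4 and 6 with array weights. The replicate numbers did not pair the libraries: over 45 same-numbered pairs the correlation of deviations from group means ran from -0.36 to 0.17, 4 were over 0.1, and 2 of 18 libraries correlated best with their own number. With the replicate number as a block, 9, 7 and 7 of the 10 genes were called in WT, C14R and deletion; EZH1 then passed in C14R (0.16, limma adjusted p = 0.048). The depth behind these values is unknown; DNMT3B, at 2.33 FPKM on average, had the lowest level.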

Other observations

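Methyltransferases of H3K9 and H4K20 (lysines of histones H3 and H4), outside DNA methylation and Polycomb, were measured as a further list. Of 9 tested, 6 were lower and 1 higher in WT, 5 and 2 in C14R, and 4 and 1 in deletion. Of all tested genes 34% were lower and 38.2% higher in WT, 35% and 37.9% in C14R, and 34.4% and 38.6% in deletion. The median log2 change of the list was -0.22, -0.14 and -0.02 in that order, beside 0.03, 0.02 and 0.03 over all tested genes. SUV39H1 fell from 3.59 ± 0.253 to 1.45 ± 0.266 FPKM in WT (SD, n = 3; log2 change -0.91, limma adjusted p = 1.6e-07). Its paralogue SUV39H2 fell from 18.4 ± 2.03 to 9.49 ± 0.967 FPKM (-0.89). SETDB2 rose from 3.85 ± 0.297 to 6.29 ± 0.097 FPKM (0.59). After the rescaling without small RNA genes, 4 were lower and 3 higher in WT, and the falls of both SUV39 genes still passed (-0.77 and -0.69).

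Most germline genes known to be silenced by promoter methylation were under the filter, at values too low to show whether silencing was kept. Of 13 such genes, 2 were listed at 0 in all libraries, 10 more were under the filter and 1 was tested. The tested gene, MAGEC1, stood at 4.22 ± 0.117 FPKM at day 0 and 3.28 ± 0.359 FPKM at day 18 in WT (log2 change -0.29, limma adjusted p = 0.033), and after the rescaling at -0.12 (0.34). Its change was -0.35 in C14R (0.011) and -0.20 in deletion (0.13). MAGEA4 reached 1.87 FPKM in a day 0 library and was listed at 0 in the day 18 libraries. SYCP3 was at most 0.193 FPKM at day 0 and 0.468 FPKM at day 18, and DDX4 at most 0.0954 and 0.239 FPKM. The highest value was also higher at day 18 for DAZL, MAEL, TEX101, HORMAD1, PIWIL2 and TDRD1, and lower for MAGEA1 and MAGEA4. DNA methylation itself was not measured here.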
